A study of Mus musculus with 32 samples.

Results

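Axon guidance ligands and receptors were followed in the mRNA of S100a10 cells and in the RNA of whole mouse cortex. The genes were chosen by name: 72 gene rows belong to the semaphorins, plexins, neuropilins, ephrins, Eph receptors, Slits, Robos, netrins, netrin-Gs, Dcc and Unc5 receptors, and the 66 whose mean CPM (a gene's count scaled to the size of its library) over the 32 libraries was at least 1 were kept, 35 ligands and 31 receptors, out of 24062 genes in the count tables. Sema4c (1.39 CPM), Sema3f (1.26) and Epha8 (1.08) lay just inside this limit, and Robo4 (0.888) and Efna1 (0.805) just outside it, with Epha1, Epha2, Sema3g and the antisense RNA Plxna4os1 lower still, at 0.053 to 0.707 CPM. All mice were adult males of the bacTRAP strain Tg(S100a10-EGFP/Rpl10a)ES691Htz, in which the regulatory elements of S100a10 drive an EGFP-tagged ribosomal protein L10a from the transgene of a single founder line. The Gh mice were housed in groups with their littermates and received vehicle, the Sh mice were housed singly from weaning and received vehicle, and the Sh + Flx and Sh + Flx anxious mice were housed singly and drank fluoxetine (Flx) at 0.167 g/L for 21 days. The Sh + Flx mice showed no anxiety in an open field and the Sh + Flx anxious mice did, so these groups differ in measured behavior and not in treatment. Each group gave 4 libraries of ribosome-bound mRNA (TRAP) and 4 of input, which is the RNA of whole cortex, each from the pooled cortices of 3 mice.

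Guidance ligands are secreted or membrane-bound proteins that attract or repel growing axons, and their receptors pass the signal to the cytoskeleton through small GTPases and kinases. Class 3 semaphorins are secreted and bind neuropilins paired with plexins, most other semaphorins bind plexins directly, ephrins bind Eph receptor tyrosine kinases on neighboring cells, Slits bind Robos, and netrins bind Dcc and Unc5 receptors. In the adult cortex many of these proteins stay in use at synapses and dendritic spines, and several of them also act in blood vessels and in the meninges.

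Counts in genes summed to 9776244 to 64788703 per TRAP library (median 26535218) and 19265435 to 34515281 per input library (median 26411125). S100a10 itself stood at 39.6 to 68.4 CPM in 13 TRAP samples, at 19.1 in Sh TRAP 2 and 11.9 in Sh TRAP 3, and at 5.75 to 11.01 in input. The summed level of nuclear long noncoding RNAs, which ribosome purification should leave behind, was 32684 and 55776 CPM in Sh TRAP 2 and 3 against 8898 and 9006 in Sh TRAP 1 and 4 and 7708 to 10737 in Gh TRAP. Results that rest on Sh TRAP 2 and 3 are therefore given with and without them. Gh TRAP 2 and 3 differed by hardly more than the sampling noise (mean chi-square per gene 1.13) and were counted as 1 sample, which leaves n = 3 in that group and 31 samples in all. Sh TRAP 1 and 4 were also close (mean chi-square per gene 2.17, r = 0.997 across genes, which are not independent replicates), so leaving out Sh TRAP 2 and 3 leaves a pair of similar libraries in that group. By this chi-square, libraries 1 and 4 and libraries 2 and 3 were the closest pairs in the 4 input groups and in Gh, Sh and Sh + Flx TRAP, narrowly so in Sh + Flx TRAP (35.1 for libraries 1 and 4 against 37.3 for 1 and 2). In Sh + Flx anxious TRAP, libraries 1 and 4 (46.3) were less alike than 1 and 2 (37.6). The labels do not say that each library came from its own pool, so the p-values measure the spread between libraries, which may be technical in part. In both fractions, fewer cells of a type and less mRNA per cell cannot be told apart.

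The guidance genes had long gene bodies, with a median span of 87.0 kb against 22.8 kb for all genes tested in TRAP, from 4.64 to 1555 kb. The promoters of 4 members on which the results below turn are shown, Sema3d, Ephb4 and Efna4 because their mRNA was far higher in TRAP than in input and Sema4a because its mRNA was higher in input after Flx. Each sequence runs 5′ to 3′ on the strand of the gene up to the base before its outermost RefSeq start in GRCm38.p6 (the build named mm10), and capitals mark matches to a cAMP response element half-site (TGACG), a GC box (GGGCGG) or a TATA box (TATAAA) on either strand.
Sema3d, chr5:12382916-12383160, plus strand: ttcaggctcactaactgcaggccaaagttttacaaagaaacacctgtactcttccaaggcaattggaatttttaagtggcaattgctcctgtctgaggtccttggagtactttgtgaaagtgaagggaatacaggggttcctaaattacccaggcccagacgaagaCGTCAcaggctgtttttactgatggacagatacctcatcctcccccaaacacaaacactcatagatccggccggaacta
Ephb4, chr5:137349859-137350108, plus strand: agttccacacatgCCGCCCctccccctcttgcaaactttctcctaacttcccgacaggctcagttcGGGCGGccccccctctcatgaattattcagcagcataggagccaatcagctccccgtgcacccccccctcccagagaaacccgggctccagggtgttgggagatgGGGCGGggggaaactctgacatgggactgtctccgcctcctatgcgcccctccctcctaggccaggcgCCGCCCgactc
Efna4, chr3:89338029-89338278, minus strand: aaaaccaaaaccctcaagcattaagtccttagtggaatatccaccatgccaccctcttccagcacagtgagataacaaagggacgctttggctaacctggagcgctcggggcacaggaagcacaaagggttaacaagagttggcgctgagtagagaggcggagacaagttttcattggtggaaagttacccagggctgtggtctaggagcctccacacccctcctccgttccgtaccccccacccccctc
Sema4a, chr3:88461183-88461432, minus strand: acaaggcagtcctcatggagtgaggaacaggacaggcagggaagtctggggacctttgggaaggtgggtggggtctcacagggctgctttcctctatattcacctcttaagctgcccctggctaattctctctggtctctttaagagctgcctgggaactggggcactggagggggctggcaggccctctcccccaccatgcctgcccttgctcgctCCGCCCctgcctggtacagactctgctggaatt
The Ephb4 window held 4 GC boxes, the Sema4a window 1 GC box, the Sema3d window 1 half-site, and the Efna4 window none of these letters. Over windows of 250 bases, a GC box was found for 40 of the 56 members with a window (71.4%) and for 33.0% of 27025 genes, a half-site for 6 members (10.7%) and 17.8% of genes, and a TATA box for 2 members (3.57%) and 13.0% of genes. The 27025 genes were all those with a window and, unlike the members, were not filtered by expression, so the 2 sets are not alike.

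To compare levels between genes, the CPM of each member was divided by the length of its longest RefSeq transcript. The ranks depend on this length. In Gh input, for example, Robo2 had 99.8 to 104 CPM over 18089 bases, and Robo1 had 51.4 to 63.7 CPM over 9342 bases. In Gh TRAP the highest member was Epha4, a receptor for both classes of ephrin, at 23.6 CPM per kb of transcript, followed by the semaphorin receptor Plxna2 at 17.7, Robo1 at 15.0, the ephrin ligand Efna5 at 12.9 and the Eph receptor Epha7 at 12.05. In Gh input the same scale put Epha4 at 30.0, Plxna2 at 16.8, Epha7 at 16.7, Efna5 at 16.4 and Sema7a, a membrane-anchored semaphorin, at 14.6. Robo1 ranked 3rd in TRAP and 17th in input, where it stood at 6.20 CPM per kb, and Sema3d ranked 8th in TRAP (10.5 CPM per kb) and 44th in input (1.19). The leading member of each family was otherwise mostly the same in both fractions: Efna5 of the ephrin-A genes, Efnb3 of the ephrin-B genes, Epha4 and Ephb1 of the Eph receptors, Nrp2 of the neuropilins, Ntng1 of the netrins, Plxna2 of the plexins, Robo1 of the Robos and Sema7a of the semaphorins outside class 3. Sema3a replaced Sema3d in input, as Slit3 replaced Slit2 and Unc5d replaced Unc5c.

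Comparison of TRAP with input in Gh mice asks which guidance mRNAs the purified fraction holds at other levels than the cortex around it. Of the 66 members, 8 were higher in TRAP and 19 lower, and 39 did not pass the test (edgeR's quasi-likelihood test, Benjamini-Hochberg adjusted p under 0.05 over all genes). This is 40.9% of the members against 42.2% of all 17015 genes tested, of which 20.3% were higher and 21.9% lower, so that the share called was near the background. The median log2 fold change of the members was -0.25 and that of all genes -0.06. Averaged over the 4 groups, 17 members were higher and 32 lower, 74.2% against 69.7% of all genes (32.3% higher and 37.4% lower). In the other groups alone, 24 members were called in Sh (40.1% of all genes), 38 in Sh + Flx (51.9%) and 36 in Sh + Flx anxious (50.8%). Without Sh TRAP 2 and 3 the count was 34 in Gh, 14 of them higher (49.2% of all genes called), and 50 in the mean of the 4 groups (74.2%).

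**Figure D1:**
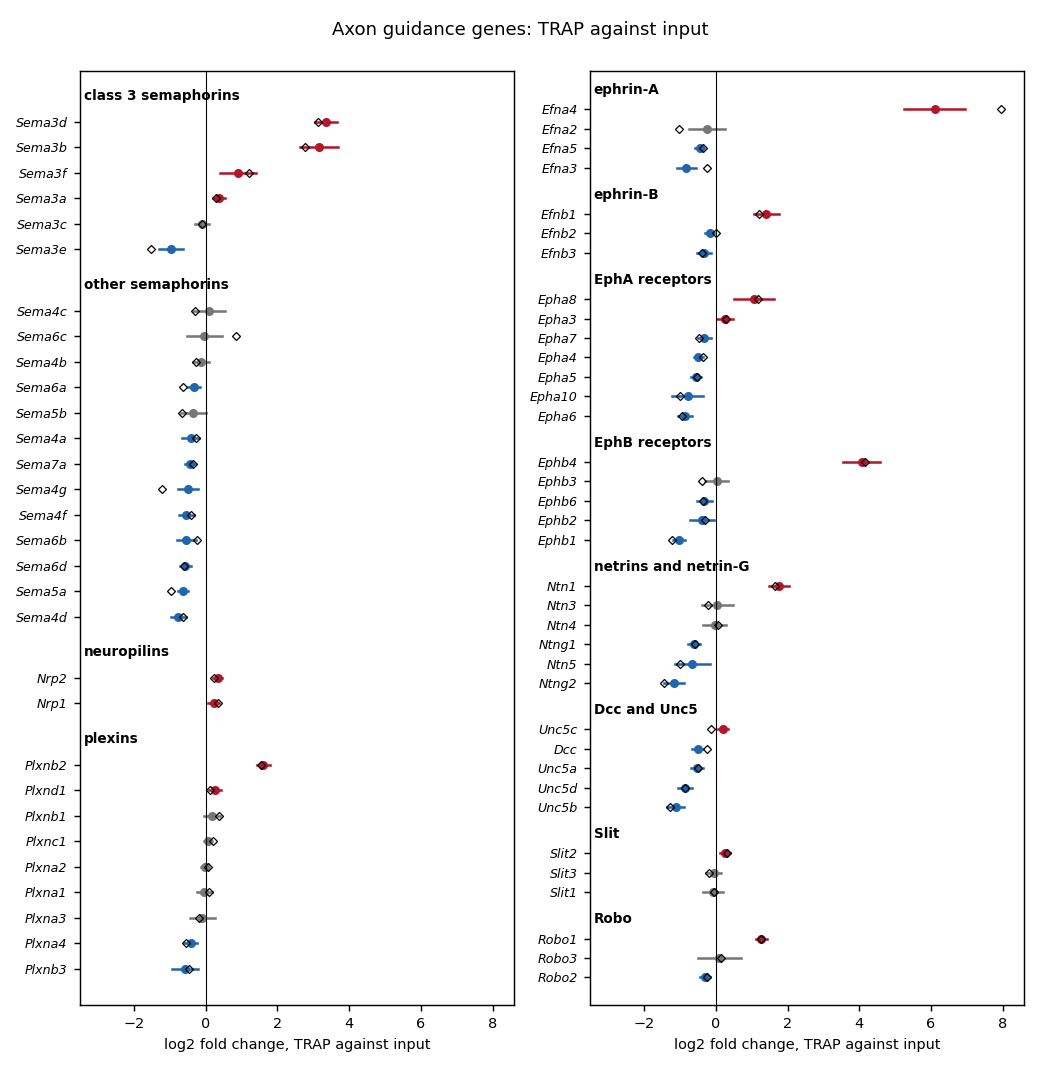
Log2 fold change of TRAP against input (horizontal axis) for each of the 66 members, grouped by family. Filled points and bars are the mean of the 4 groups with its 95% interval, red for the 17 members called higher, blue for the 32 called lower and grey for those not called, and open diamonds are Gh alone. Ephb4, Sema3d and Sema3b lie between 3.15 and 4.07 in the mean of the 4 groups, and Efna4, whose value depends on input counts near 0, lies at 6.11.

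Among the secreted ligands, Sema3d was the class 3 semaphorin with the strongest signal in TRAP. The gene lies at chr5:12383161-12588953 on the plus strand. Its level in Gh TRAP was 76.3, 62.0 and 70.7 CPM, against 9.89, 6.92, 8.57 and 6.27 CPM in Gh input, and the fractions did not overlap in any group. The log2 fold change was 3.13 (standard error, SE, 0.31, adjusted p = 8.78e-10). In Sh TRAP it stood at 106 CPM in libraries 1 and 4 but at 28.2 and 40.0 in libraries 2 and 3. Sema3b, another secreted repellent, stood at 7.59, 4.62 and 7.95 CPM in Gh TRAP and at 0.626, 1.43, 1.31 and 0.591 in Gh input, a log2 fold change of 2.76 (SE 0.52, adjusted p = 5.96e-05). The annotated exons of Sema3b share 311 bases with Lsmem2 on the same strand. Sema3e, the ligand of plexin D1, went the other way, at 9.55, 14.6 and 10.1 CPM in Gh TRAP and 34.8, 30.7, 30.4 and 36.1 in Gh input (log2 fold change -1.52, SE 0.37, adjusted p = 0.00117). Sema3a, which acts through Nrp1, stood at 68.8 ± 7.32 CPM (SD, n = 3) and 56.6 ± 4.79 (SD, n = 4) and did not pass in Gh (adjusted p = 0.187), though it did in the mean of the 4 groups (log2 fold change 0.37, adjusted p = 0.000158).

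Ntn1, the attractant netrin 1, was also higher in the purified mRNA. It lay at 9.18, 10.7 and 12.6 CPM in Gh TRAP and at 2.38, 3.70, 3.76 and 3.94 in Gh input, without overlap. Its log2 fold change was 1.66 (SE 0.29, adjusted p = 2.43e-05). The netrin-G genes, whose products are held in the membrane by a lipid anchor and act at synapses, were lower: Ntng2 by -1.46 on the log2 scale (adjusted p = 0.000204) and Ntng1 by -0.59 (adjusted p = 0.00521, or 0.0521 without Gh TRAP 4). None of the 3 Slit genes passed, and Slit2, the most abundant per length in TRAP, stood at 48.7 ± 4.97 CPM (SD, n = 3) and 39.5 ± 6.22 (SD, n = 4).

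The semaphorins outside class 3, most of them anchored in the membrane, included none called higher in TRAP in Gh or in the mean of the 4 groups. In Gh, 6 of 13 were lower and 7 did not pass, and in the mean of the 4 groups 9 were lower and 4 did not pass. Sema5a, a transmembrane semaphorin with thrombospondin repeats, was at 66.6, 63.8 and 69.4 CPM in Gh TRAP and at 139, 123, 124 and 136 in Gh input (log2 fold change -0.97, SE 0.16, adjusted p = 7e-06). Sema4g (-1.21, adjusted p = 0.0012), Sema6d (-0.61, adjusted p = 0.00191) and Sema6a (-0.63, adjusted p = 0.00506) were lower too on the log2 scale. The same held for Sema4d, a ligand of the class B plexins, at -0.63 (adjusted p = 0.016).

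The ephrins divided between the fractions. Efna4, a lipid-anchored ephrin, was almost without counts in input. Summed over all groups it had 1962 counts in TRAP, 9 to 321 per library, and 21 counts in input, 0 to 5 per library, with 7 of the 16 input libraries at 0. The ratio of the CPM was 76.9 (95% exact interval 50.2 to 125, which covers counting error only). Efnb1, a transmembrane ephrin, stood at 6.46, 10.7 and 7.22 CPM in Gh TRAP and at 3.44, 3.41, 3.67 and 3.71 in Gh input, a log2 fold change of 1.20 (SE 0.36, adjusted p = 0.00781), which did not pass without the summed Gh TRAP 2 and 3 (0.95, adjusted p = 0.0662). Efna5 was lower in TRAP (-0.34, adjusted p = 0.0336). Efnb2, the partner of Ephb4 in blood vessels, stood at 67.1 ± 6.31 CPM (SD, n = 3) in TRAP and 67.0 ± 6.19 (SD, n = 4) in input, with a log2 difference of 0.00 (95% interval -0.26 to 0.27).

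Of the receptors, Ephb4, Plxnb2 and Robo1 were higher in TRAP. Ephb4, the receptor tyrosine kinase best known from veins, lies at chr5:137350109-137374522 on the plus strand. It stood at 11.9, 6.34 and 7.02 CPM in Gh TRAP and at 0.469, 0.390, 0.591 and 0.394 in Gh input, so that all TRAP values lay far above all input values. The log2 fold change was 4.17 (SE 0.51, adjusted p = 6.6e-08). Robo1, a Slit receptor at chr16:72027518-73047491 on the plus strand, stood at 137, 130.4 and 152 CPM against 59.5, 51.4, 57.1 and 63.7 (log2 fold change 1.27, SE 0.15, adjusted p = 5.09e-08). Plxnb2, a receptor for class 4 semaphorins, stood at 23.2, 23.6 and 29.0 CPM against 11.3, 6.33, 8.27 and 8.99 (log2 fold change 1.54, SE 0.19, adjusted p = 5.28e-08). These 3 receptors and the ligands Sema3d, Sema3b, Ntn1, Efna4 and Efnb1 were the 8 members called higher in each of the 4 groups. The share of all genes called in 1 direction in each of the 4 groups was not counted, and single groups called 40.1 to 51.9% of all genes. In Sh TRAP 3, Efnb1 stood at 1.35 CPM, below all Sh input libraries at 2.94 to 3.67.

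**Figure D2:**
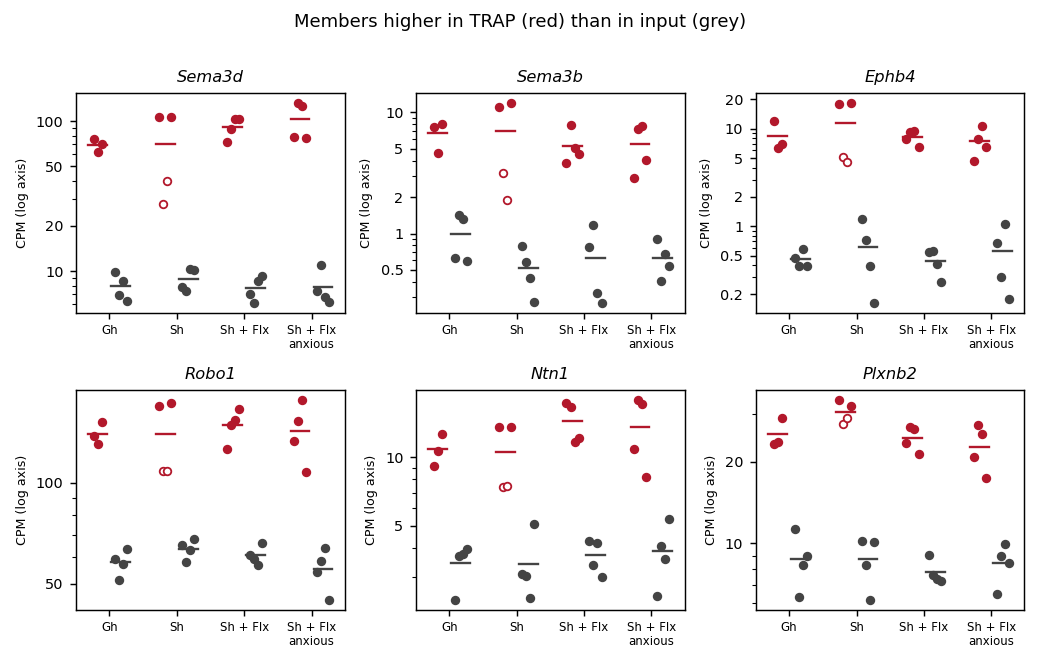
CPM (vertical log axes) of Sema3d, Sema3b, Ephb4, Robo1, Ntn1 and Plxnb2 in each library, by group, with TRAP in red and input in grey. Horizontal lines are group means and open circles are Sh TRAP 2 and 3, which lie below the other TRAP samples for Sema3d, at 28.2 and 40.0 CPM. The TRAP and input points do not overlap in any group for any of the 6 genes.

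Receptors that were lower in TRAP came mainly from the EphA and Unc5 genes. In Gh, 4 of 7 EphA genes and 3 of the 5 Dcc and Unc5 genes were lower and none was higher. Ephb1, an ephrin-B receptor, stood at 8.34, 12.8 and 9.23 CPM in Gh TRAP and at 24.5, 23.2, 23.0 and 25.3 in Gh input (log2 fold change -1.23, SE 0.18, adjusted p = 1.31e-06). Unc5b, a repellent netrin receptor, stood at 7.59, 2.73 and 5.72 CPM against 9.20, 14.3, 12.6 and 13.8 (log2 fold change -1.26, SE 0.25, adjusted p = 0.000134). Log2 fold changes of Unc5d (-0.85, adjusted p = 0.000749), Epha6 (-0.95, adjusted p = 0.000587), Epha5 (-0.54, adjusted p = 0.00578) and Epha4 (-0.35, adjusted p = 0.0209) had the same sign. Members called lower in each of the 4 groups were Efna5, Epha4, Ephb1, Ntng2, Sema7a, Unc5b and Unc5d, and no member was called in opposite directions in different groups. For these too the share of all genes was not counted. Plexins mostly did not pass: of 9, 1 was higher, 1 was lower and 7 were not called in Gh. The neuropilins were not called in Gh (Nrp1 0.35, adjusted p = 0.0722, and Nrp2 0.24, adjusted p = 0.144), but both were higher in the mean of the 4 groups (0.22, adjusted p = 0.0104, and 0.34, adjusted p = 2.21e-05).

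Markers of cells other than neurons also differed between the fractions, where 42.2% of all genes were called in Gh. In Gh, 14 of 14 markers of meningeal fibroblasts were higher in TRAP, with a median log2 fold change of 5.32 and a summed level of 7446 to 8893 CPM against 226 to 263 in input. Endothelial markers were higher for 10 of 12 (median 2.44, summed 188 to 225 CPM against 20.3 to 27.4) and mural markers higher for 7 and lower for 1 of 12 (median 1.34, summed 234 to 270 CPM against 37.0 to 42.2). Among the endothelial markers, Flt1 was at 32.5 to 44.0 CPM in Gh TRAP and 1.56 to 2.347 in Gh input, Cdh5 at 35.5 to 43.6 and 1.01 to 1.75, and Cldn5 at 0.251 to 1.15 and 0.156 to 0.506. Among the mural markers, Vtn was at 71.4 to 81.1 CPM in TRAP and 2.49 to 4.61 in input, Anpep at 69.9 to 93.0 and 2.07 to 3.64, and Higd1b at 0 to 0.139 and 0.158 to 1.001. In the other groups the meningeal sum was 6631 to 8735 CPM in Sh + Flx TRAP and 5470 to 9333 in Sh + Flx anxious TRAP. Within Sh TRAP it stood at 11771, 3395, 2820 and 11609 CPM in libraries 1 to 4, and Sema3d, Sema3b and Ephb4 were high and low in the same libraries. Markers of oligodendrocytes were lower in Gh TRAP for 10 of 12 (median -1.43) and those of interneurons for 14 of 16 (-1.25). The part of these cells in the values above was not tested. Of the other lists, layer 5 neurons of the intratelencephalic type had 3 markers higher and 4 lower of 10, those of the pyramidal tract type 2 and 6 of 9, layers 2/3 and 4 had 1 and 5 of 10, layer 6 had 2 and 4 of 10, striatal spiny neurons 1 and 6 of 11, astrocytes 2 and 5 of 12, oligodendrocyte precursors 2 and 6 of 8, microglia 3 and 0 of 12, choroid plexus 2 and 2 of 7, and nuclear long noncoding RNAs 0 and 6 of 10.

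Single housing was compared with group housing to find guidance genes that respond to isolation in S100a10 cells. No member passed in TRAP mRNA with edgeR, and neither did any other gene (0.0%). At an unadjusted p under 0.05 there were 14 members of 66 (21.2%) against 15.7% of all genes, and DESeq2 called 3 members, Plxnd1, Sema4g and Sema5a, against 1.25% of all genes. Without Sh TRAP 2 and 3 edgeR again called no member (0.0353% of all genes). Fold changes were above 0 for 54 of 66 members, with a median of 0.31 on the log2 scale against 0.02 for all genes. Without Sh TRAP 2 and 3 they were above 0 for 42 members, with a median of 0.11 against -0.02. Summed markers of some other cells lay higher in Sh TRAP too, without overlap: astrocytes at 2735 to 2883 CPM in Gh and 3538 to 4632 in Sh (3631 and 3666 in libraries 1 and 4), oligodendrocytes at 895 to 946 and 1041 to 1602 (1041 and 1084), layer 5 neurons of the pyramidal tract type at 235 to 261 and 283 to 317 (285 and 283), and striatal spiny neurons at 770.4 to 806 and 852 to 1042 (866 and 852). The ranges of the other cell marker sums overlapped between Gh and Sh TRAP, among them interneurons and microglia. For some lists this was because Sh libraries lay on either side of all Gh samples. Meningeal sums were 11771, 3395, 2820 and 11609 CPM in Sh libraries 1 to 4 and 7446 to 8893 in Gh. Endothelial sums were 251, 162, 173 and 253 against 188 to 225, and mural sums 333, 166, 156 and 319 against 234 to 270. Those of layer 5 neurons of the intratelencephalic type were 1444, 1336, 1627 and 1478 against 1511 to 1592. No marker passed the test, and their part in the shift of the members was not tested.

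Plxnd1, the receptor of Sema3e, had the smallest p and lies at chr6:115954811-115995339 on the minus strand. Its level was 19.2, 21.0 and 20.4 CPM in Gh TRAP and 36.0, 43.0, 31.6 and 34.3 in Sh TRAP, with no overlap. The log2 fold change was 0.84 (SE 0.19, adjusted p = 0.206), or 0.78 (adjusted p = 0.139) without Sh TRAP 2 and 3, and DESeq2 gave 0.85 with an adjusted p of 0.0142. Sema4g was at 3.28, 4.95 and 2.53 CPM in Gh TRAP and at 9.01, 12.8, 12.2 and 7.70 in Sh TRAP, also without overlap (log2 fold change 1.53, SE 0.38, adjusted p = 0.206, or 1.19 and 0.234 without the 2 libraries). For Sema5a the values were 66.6, 63.8 and 69.4 CPM and 96.9, 86.3, 169 and 96.0 (0.75, SE 0.21, adjusted p = 0.206, or 0.51 and 0.182). Epha6, by contrast, took its high mean in Sh TRAP from libraries 2 and 3, at 45.4 and 71.9 CPM, while libraries 1 and 4 were at 28.1 and 27.3 and overlapped Gh TRAP at 19.1, 30.0 and 19.1. Its log2 fold change of 0.92 fell to 0.26 without them.

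Across all genes these differences moved with gene span, which they did not do in the same order for the members. In Sh against Gh TRAP, the median log2 fold change of all genes was -0.10 for spans under 20 kb, 0.06 for 20 to 100 kb and 0.21 for over 100 kb, and that of the members 0.10, 0.41 and 0.30 over 17, 16 and 33 genes. Without Sh TRAP 2 and 3 the medians were -0.02, -0.02 and -0.04 for all genes and 0.36, 0.11 and 0.08 for the members. In Sh + Flx against Sh the medians by span were 0.11, -0.06 and -0.23 for all genes and -0.42, -0.25 and -0.44 for the members, or 0.02, 0.02 and 0.00 and -0.26, -0.12 and -0.12 without Sh TRAP 2 and 3. In Sh + Flx anxious against Sh they were 0.13, -0.07 and -0.22 for all genes and -0.36, -0.48 and -0.38 for the members. Without Sh TRAP 2 and 3 they were 0.03, -0.0008 and -0.01 for all genes and -0.26, -0.17 and -0.03 for the members. Nuclear long noncoding RNAs had a median of 1.10 in Sh against Gh TRAP with all libraries. Their part in the values of Sh TRAP 2 and 3 was not tested.

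**Figure D3:**
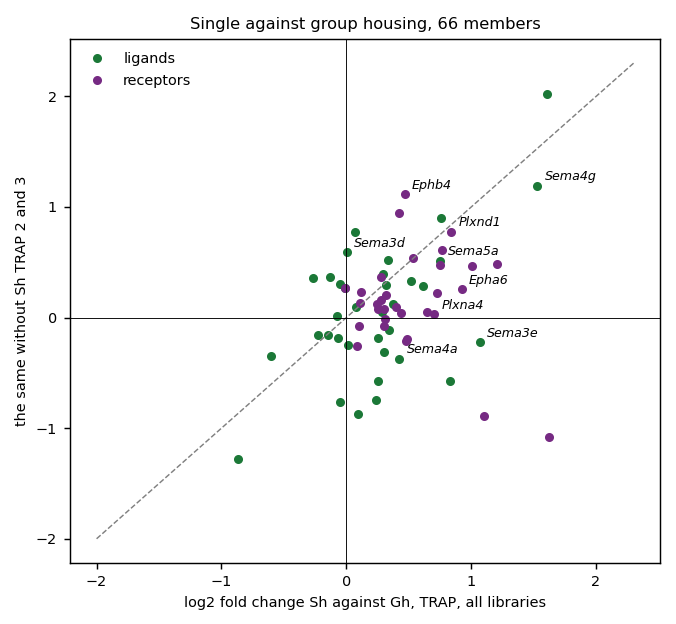
Log2 fold change of Sh against Gh in TRAP mRNA for the 66 members with all libraries (horizontal axis) and without Sh TRAP 2 and 3 (vertical axis), ligands in green and receptors in purple. The 2 fits share their remaining libraries. With all libraries 54 members lie above 0 and without the 2 libraries 42 do, and Plxnd1 lies at 0.84 and 0.78.

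In input, Sh and Gh differed in no member (13 genes in all, 0.0829%), with 10 members of 65 tested at an unadjusted p under 0.05 (11.2% of all genes). Efna4 was too low in input to be tested. DESeq2 called 1 member, Nrp2 (adjusted p = 0.0358), against 0.956% of all genes. Nrp2, a receptor for Sema3f, stood at 31.2, 30.3, 24.9 and 29.8 CPM in Gh input and at 37.9, 35.5, 34.8 and 37.8 in Sh input, so the groups did not overlap, with a log2 fold change of 0.33 (SE 0.09, adjusted p = 0.171 with edgeR). The next members by p were Dcc (0.31, adjusted p = 0.249), Sema6a (-0.21, adjusted p = 0.289) and Slit2 (0.24, adjusted p = 0.307). A test of the change in TRAP minus that in input called no member with edgeR (0.0235% of all genes), 11 at an unadjusted p under 0.05 (12.9%) and 1 with DESeq2 (0.359%), and none without Sh TRAP 2 and 3 (0.363%).

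Fluoxetine-treated, singly housed mice were compared with Sh to find genes that differ after Flx, separately for mice that behaved normally and for those that were anxious. In TRAP mRNA, Sh + Flx against Sh called 3 members, 4.55% against 6.46% of all genes, and all 3 were receptors and lower: Epha6, Plxnd1 and Plxna2. This count was unstable, at 16 without Sh TRAP 1 (14.6% of all genes) or Sh TRAP 4 (14.2%), 0 without Sh + Flx TRAP 2 (1.29%) or 3 (1.08%), 7 with Gh TRAP 2 and 3 kept separate (9.78%) and 15 with DESeq2 (14.3%). Without Sh TRAP 2 and 3 none of them passed and 1 other receptor did, Ephb4 at -1.13 (adjusted p = 0.0487; 2.08% of all genes called). Sh + Flx anxious against Sh called 8 members, 12.1% against 10.5% of all genes, again all receptors: Plxnd1, Dcc, Ephb1, Plxna3, Epha6, Plxna2 and Plxnc1 were lower and Nrp2 was higher. Leaving out 1 sample gave 3 to 14 members, with 14 without Sh TRAP 1 (16.3% of all genes) or Sh TRAP 4 (16.2%) and 3 without Sh TRAP 2 (4.72%) or Sh + Flx anxious TRAP 2 (3.66%) or 3 (3.94%). Without the 2 libraries, 6 members were called (4.53% of all genes), of which Plxnd1, Dcc and Ephb1 were among the 8. The other 3 were Ephb4 (-1.28, adjusted p = 0.0174), the ligand Sema4a (0.99, adjusted p = 0.0174) and Unc5c (0.67, adjusted p = 0.0373). Because Sh TRAP 1 and 4 were alike, they were also summed as 1 sample, a choice made after seeing the data. With Sh TRAP 2 and 3 kept (n = 3), 16 members were called in Sh + Flx (13.9% of all genes) and 14 in Sh + Flx anxious (15.9%). These were not all receptors: the ligands Ntng1 and Sema5a were called in Sh + Flx, and Ntng1 and Sema6a in Sh + Flx anxious. With Sh TRAP 2 and 3 left out, Sh had 1 sample, assumed to vary like the other groups, and no member passed in either comparison (0.0612% and 0.106% of all genes). The values in Sh + Flx anxious were then -0.97 for Plxnd1 (adjusted p = 0.161), -0.91 for Dcc (0.204), -0.92 for Ephb1 (0.344), -1.28 for Ephb4 (0.223), 0.99 for Sema4a (0.266) and 0.67 for Unc5c (0.333). The calls against Sh made without Sh TRAP 2 and 3 were thus lost when Sh TRAP 1 and 4 counted as 1 sample. The comparisons share the Sh libraries, so they are not independent of each other. When libraries 1 and 4 and libraries 2 and 3 were summed in each group (n = 2), no member passed in either comparison, with Plxnd1, Dcc and Ephb1 at -1.03, -1.08 and -1.05 in Sh + Flx anxious and an adjusted p of 0.328 for each.

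Plxnd1 was at 19.99, 19.8, 18.5 and 27.0 CPM in Sh + Flx TRAP and at 23.0, 18.2, 15.8 and 15.1 in Sh + Flx anxious TRAP, all below the 4 values of Sh TRAP given above and around those of Gh TRAP. Against Sh its log2 fold change was -0.77 in Sh + Flx (SE 0.18, adjusted p = 0.0228, or -0.72 and 0.0517 without Sh TRAP 2 and 3) and -1.01 in Sh + Flx anxious (SE 0.18, adjusted p = 0.0049, or -0.96 and 0.00862). The second call held when any 1 of the 15 TRAP samples was left out, and the first was lost without Sh TRAP 2 or without Sh + Flx TRAP 1, 2 or 3. In input Plxnd1 stood between 15.1 and 23.3 CPM in all groups.

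Dcc, the attractive netrin receptor, stood at 41.4, 41.9, 54.2 and 43.2 CPM in Sh TRAP, at 29.8, 28.2, 34.1 and 36.5 in Sh + Flx TRAP and at 19.7, 28.3, 25.4 and 15.7 in Sh + Flx anxious TRAP. Neither treated group overlapped Sh, and the 2 treated groups overlapped each other only at 28.2 and 28.3 CPM. The log2 fold change in Sh + Flx anxious was -1.02 (SE 0.19, adjusted p = 0.00695, or -0.92 and 0.0146 without Sh TRAP 2 and 3), and the difference between the treated groups was -0.52 (95% interval -0.92 to -0.12), which did not pass over all genes. Ephb1 was at 15.3, 19.9, 18.1 and 16.2 CPM in Sh TRAP and at 9.54, 6.61, 6.60 and 10.3 in Sh + Flx anxious TRAP, without overlap (log2 fold change -1.07, SE 0.22, adjusted p = 0.00882, or -0.92 and 0.0382). The Dcc and Ephb1 calls held when any 1 of the 15 TRAP samples was left out. The gene body of Dcc spans 1097616 bases and is in the longest class of the span comparison above.

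The other calls in TRAP did not hold without Sh TRAP 2 and 3. Epha6 was at 21.5, 17.0, 20.2 and 17.9 CPM in Sh + Flx TRAP, below all Sh values, with a log2 fold change of -1.19 (adjusted p = 0.0207), or -0.53 (adjusted p = 0.134) without the 2 libraries, and in Sh + Flx anxious -0.87 (adjusted p = 0.0403), or -0.22 (adjusted p = 0.535). Plxna2, a co-receptor of neuropilins, changed by -0.50 (adjusted p = 0.0473) in the treated mice without anxiety and by -0.48 (adjusted p = 0.0405) in the anxious mice, or by -0.28 and -0.26 without the 2 libraries. The calls of Plxna3 (-1.49, adjusted p = 0.0311, or -0.78 and 0.297) and Plxnc1, the receptor of Sema7a (-0.47, adjusted p = 0.0457, or -0.35 and 0.107), were lost in the same way. Nuclear long noncoding RNAs fell in these comparisons too, 7 of 10 in Sh + Flx (median -1.76) and 8 of 10 in Sh + Flx anxious (-1.93), and 1 and 3 of 10 without Sh TRAP 2 and 3; their part in the result was not tested.

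Nrp2 and Unc5c lay higher in the treated groups. Nrp2 was at 36.0, 38.5 and 28.9 CPM in Gh TRAP, 40.9, 38.1, 30.1 and 41.0 in Sh TRAP, 50.1, 53.7, 54.3 and 56.4 in Sh + Flx TRAP and 47.0, 61.6, 61.7 and 45.5 in Sh + Flx anxious TRAP. All 8 treated samples thus lay above all 7 untreated ones. Against Sh the log2 fold change was 0.51 for Sh + Flx (adjusted p = 0.0547) and, for Sh + Flx anxious, 0.53 (SE 0.15, adjusted p = 0.0379, or 0.41 and 0.142 without Sh TRAP 2 and 3). Unc5c, a repellent netrin receptor, was at 79.2, 73.4 and 69.4 CPM in Gh TRAP, 78.2, 79.9, 114 and 79.8 in Sh TRAP, 109, 85.9, 105 and 119.6 in Sh + Flx TRAP and 93.0, 151, 147 and 108 in Sh + Flx anxious TRAP, where only Sh TRAP 3 overlapped the treated values.

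**Figure D4:**
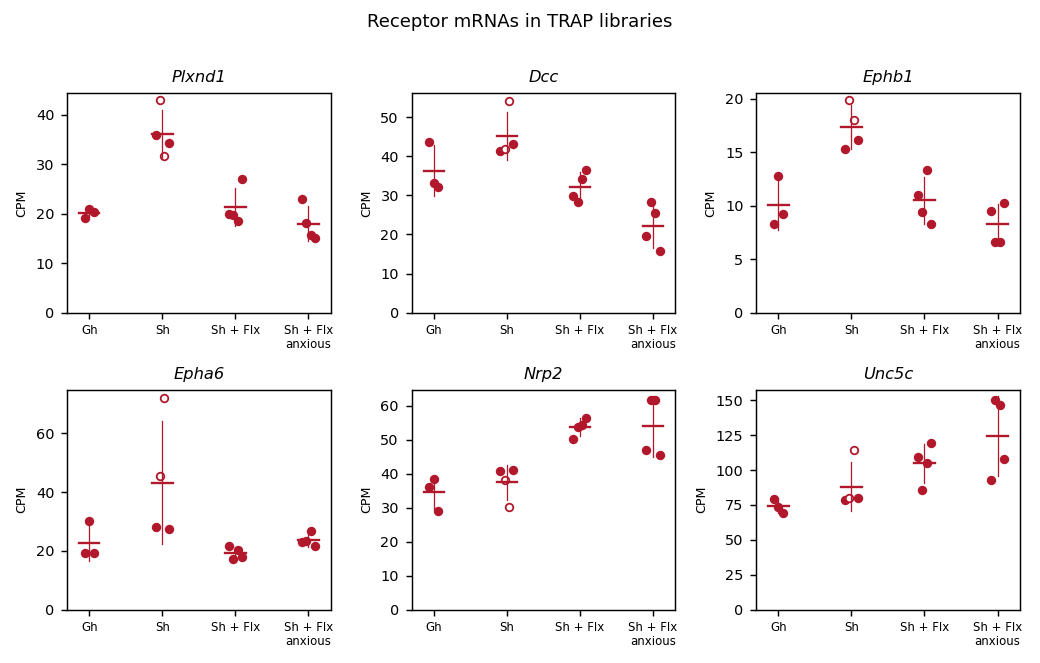
CPM of 6 receptors in the TRAP samples by group (Gh n = 3, the others n = 4). Points are samples, open circles are Sh TRAP 2 and 3, and lines and bars are means and SD. Plxnd1 is above 31 CPM in all 4 Sh samples and at 27.0 or less in all others, and Epha6 exceeds 40 CPM only in Sh TRAP 2 and 3.

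Against Gh, no member passed in TRAP mRNA in either treated group or between them. For Sh + Flx, 4 members had an unadjusted p under 0.05 (6.14% of all genes), edgeR called 0.00597% of genes, and DESeq2 called 1 member, Nrp2 (0.501% of genes). For Sh + Flx anxious, 6 members had an unadjusted p under 0.05 (7.65% of genes), edgeR called 0.0716% of genes, and DESeq2 called Nrp2 and Unc5c (0.776% of genes). In edgeR's fit without Sh TRAP 2 and 3, Nrp2 passed for Sh + Flx (0.62, adjusted p = 0.0305; 1.15% of genes called), and Nrp2 (0.64, adjusted p = 0.0202), Unc5c (0.74, adjusted p = 0.0143) and Dcc (-0.71, adjusted p = 0.0443) passed for Sh + Flx anxious (2.21%). With Sh TRAP 1 and 4 summed as well, Nrp2 passed in both comparisons (adjusted p = 0.0496 and 0.0320) and Unc5c in the second (adjusted p = 0.0170), and Dcc did not. Sh + Flx anxious and Sh + Flx differed in no member and no gene with edgeR (0.0%), with or without those libraries, 2 members had an unadjusted p under 0.05 (4.32% of genes), and DESeq2 called no member (0.0537% of genes).

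With all libraries, the members called against Sh in the RNA of whole cortex were not those called against Sh in TRAP. The overlap of such calls among all genes was not counted, so this is not shown to be particular to the members. It also depended on the libraries used. Sema4a was called in both fractions in Sh + Flx anxious when the Sh TRAP libraries high in nuclear long noncoding RNAs were left out. In input, Sh + Flx against Sh called Sema4a and Nrp1, both higher, which is 3.08% of 65 members against 2.62% of all genes. Sh + Flx anxious against Sh called 6 members, 9.23% against 6.86% of all genes: Sema4a, Nrp1, Plxna4, Unc5a and Epha5 were higher and Sema6a was lower. Against Gh, 7 members were called in Sh + Flx (5.31% of all genes) and 14 in Sh + Flx anxious (11.5%), and all 6 just named were called in both of these comparisons with the same sign as against Sh.

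Sema4a, a membrane-bound class 4 semaphorin encoded at chr3:88435959-88461182 on the minus strand, was at 13.5, 11.8, 9.45 and 14.2 CPM in Gh input, 13.2, 11.8, 10.8 and 10.96 in Sh input, 19.0, 21.8, 24.5 and 19.9 in Sh + Flx input and 28.5, 30.0, 27.6 and 25.3 in Sh + Flx anxious input. The treated groups lay above both untreated groups, and the anxious mice above the other treated mice, without overlap. Against Sh the log2 fold change was 0.86 (SE 0.12, adjusted p = 4.93e-05) and 1.24 (SE 0.12, adjusted p = 3.07e-08). The difference of 0.39 between the treated groups (95% interval 0.15 to 0.62) had an adjusted p of 0.239. In TRAP mRNA, Sema4a was at 9.17 to 10.8 CPM in Gh, 7.93, 16.3, 22.0 and 7.85 in Sh, 11.6 to 13.7 in Sh + Flx and 12.9 to 20.8 in Sh + Flx anxious, and it did not pass against Sh with all libraries (-0.13, adjusted p = 0.801, and 0.21, adjusted p = 0.665).

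Nrp1, the receptor of Sema3a and of vascular endothelial growth factor, lies at chr8:128358591-128505476 on the plus strand. It was at 20.5, 17.2, 18.7 and 20.7 CPM in Gh input and 21.0, 18.1, 19.7 and 21.2 in Sh input, and at 34.5, 28.1, 36.5 and 32.1 in Sh + Flx and 33.6, 35.4, 35.6 and 27.0 in Sh + Flx anxious. All treated libraries lay above all untreated ones. The log2 fold change against Sh was 0.71 in each treated group (SE 0.10 in both, adjusted p = 8.96e-05 and 2.68e-05), and the treated groups differed by 0.01 (95% interval -0.20 to 0.21). The exons of Nrp1 hold the 80 bases of Mir1903 on the same strand. In TRAP mRNA Nrp1 stood at 27.7, 20.1 and 26.5 CPM in Gh and at 27.3, 24.0, 40.0 and 28.5 in Sh libraries 1 to 4. It was at 26.6 to 39.9 CPM in Sh + Flx and 31.3 to 36.9 in Sh + Flx anxious. The anxious values thus lay above all untreated TRAP samples but Sh TRAP 3. Nrp1 was not called against Sh in TRAP, with or without Sh TRAP 2 and 3.

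Plxna4, a plexin that works with Nrp1 as receptor of Sema3a, had 148, 154, 140.4 and 155 CPM in Sh input, 176, 169, 175 and 161 in Sh + Flx input and 182, 196, 198 and 198 in Sh + Flx anxious input, 3 ranges without overlap. Its log2 fold change against Sh was 0.18 (adjusted p = 0.122) and 0.37 (SE 0.06, adjusted p = 0.000132). Unc5a, a repellent netrin receptor, rose from 36.2 ± 2.13 CPM in Sh input to 51.4 ± 6.57 in Sh + Flx anxious input (SD, n = 4; log2 fold change 0.50, SE 0.10, adjusted p = 0.00136). Exons of Unc5a and Hk3 overlap by 34 bases on opposite strands, and the kit does not mark strand. Sema6a, a transmembrane semaphorin that binds class A plexins, fell from 68.0 ± 3.63 to 53.7 ± 5.72 CPM (-0.35, SE 0.08, adjusted p = 0.00334). Epha5 rose from 91.0 ± 4.11 to 111 ± 7.55 CPM (0.29, SE 0.08, adjusted p = 0.0167), a call lost without Sh input 2 or 3 or Sh + Flx anxious input 1 or 2. With libraries 1 and 4 and libraries 2 and 3 summed, Sema6a (adjusted p = 0.080) and Epha5 (adjusted p = 0.187) did not pass, while Sema4a, Nrp1, Plxna4 and Unc5a did.

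**Figure D5:**
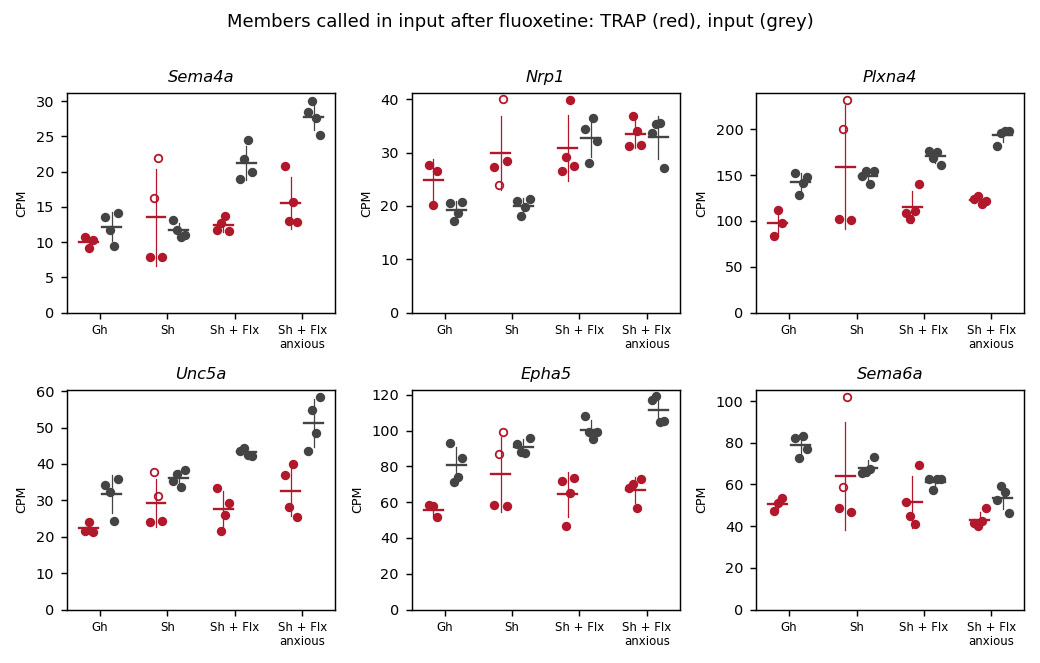
CPM of the 6 members called in input for Sh + Flx anxious against Sh, with TRAP samples in red and input libraries in grey, by group. Points are samples, lines are means and bars are SD (n = 4, and n = 3 for Gh TRAP). Sema4a input lies at 9.45 to 14.2 CPM without Flx and at 19.0 to 30.0 with it. The TRAP values of Nrp1 overlap between Sh and Sh + Flx, and between Sh and Sh + Flx anxious only through Sh TRAP 3.

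Against Gh, further members passed in Sh + Flx anxious input. Plxnb3, a plexin found in oligodendrocytes, fell from 6.40 ± 1.05 to 4.18 ± 0.524 CPM (SD, n = 4; log2 fold change -0.62, SE 0.16, adjusted p = 0.0106, or 0.0517 without Gh input 2). Unc5b fell by 0.48 on the log2 scale (adjusted p = 0.0199), a call lost without Gh input 2 or 4 or Sh + Flx anxious input 1. Nrp2 was higher than in Gh in both treated groups, by 0.37 (adjusted p = 0.0161) without anxiety and 0.35 (adjusted p = 0.0135) with it. Sh + Flx anxious and Sh + Flx input differed in no member with edgeR (0.127% of all genes), with 9 at an unadjusted p under 0.05 (7.97%), and in none with DESeq2 (0.605%).

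Markers of other cells moved in the same input libraries, where 6.86% of all genes were called in Sh + Flx anxious against Sh. The summed level of 12 oligodendrocyte markers was 1999 to 2331 CPM in Sh, 1697 to 1743 in Sh + Flx and 1372 to 1654 in Sh + Flx anxious, where 11 of 12 were lower than in Sh (median -0.48). The meningeal sum was 238 to 257, 167 to 222 and 135 to 179 CPM, with 3 of 14 markers lower in Sh + Flx anxious, and 7 of 11 markers of striatal spiny neurons were lower and 1 higher (median -0.38). Endothelial and mural markers did not pass in this comparison, 0 of 10 and 0 of 12. Interneuron markers summed to 1776 to 1901 CPM in Sh, 2087 to 2186 in Sh + Flx and 2106 to 2184 in Sh + Flx anxious, where 3 of 16 were higher and 1 lower. The sum for layer 5 neurons of the intratelencephalic type was 1772 to 2079 CPM in Sh and 2087 to 2284 in Sh + Flx anxious (3 of 10 higher, 1 lower), and that for choroid plexus was 329 to 357, 229 to 297 and 149 to 285 CPM in Sh, Sh + Flx and Sh + Flx anxious (0 of 6 higher and 2 lower in the last). The part of these cells in the changes of guidance genes was not tested.

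A test of the change in TRAP minus the change in input asks whether a gene moved differently in S100a10 cells and in cortex. For Sh + Flx against Sh it called 1 member, Epha6, against 2.97% of all genes, at -1.28 (adjusted p = 0.0173), or -0.61 (adjusted p = 0.103) without Sh TRAP 2 and 3, where no member passed (1.1% of genes). For Sh + Flx anxious against Sh it called 7 members, 10.6% against 7.31% of all genes, all with a lower value in TRAP. Plxnd1 differed by -1.10 (SE 0.21, adjusted p = 0.00479), or -1.01 (adjusted p = 0.0112) without the 2 libraries, and its call held when any 1 of the 31 samples was left out. With the library pairs summed it did not pass (-1.13, adjusted p = 0.406), and neither did it with Sh TRAP 1 and 4 summed and 2 and 3 left out (-1.08, adjusted p = 0.0777). Ephb1 (-0.80, adjusted p = 0.0309) and Dcc (-0.73, adjusted p = 0.0353) stood at -0.61 (adjusted p = 0.146) and -0.59 (adjusted p = 0.142) without Sh TRAP 2 and 3. The values of Sema4a (-1.04, adjusted p = 0.0369), Plxna4 (-0.74, adjusted p = 0.0482), Epha6 (-0.88, adjusted p = 0.0462) and Plxna2 (-0.48, adjusted p = 0.0434) shrank to -0.22, -0.05, -0.19 and -0.22 without them. Unc5c was then called as well, at 0.69 (adjusted p = 0.0345), making 2 members with Plxnd1 against 2.97% of genes.

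Genes that work with these ligands and receptors were followed as 2 lists, 56 cytoplasmic effectors and 47 cofactors and other guidance cues. In Gh TRAP against input, where 42.2% of all genes were called, 12 effectors were higher and 21 lower (median -0.24 against -0.06 for all genes). Among the latter were the kinase Pak3 (-1.63, SE 0.17, adjusted p = 4.28e-09) and the Rac regulator Chn1 (-0.77, SE 0.09, adjusted p = 2.59e-08). Of the cofactors and cues 10 were higher and 17 lower (median -0.21), with the chemokine Cxcl12 at 2.82 (adjusted p = 2.96e-13), Wnt5a at 2.66 (adjusted p = 6.73e-12) and the Wnt receptor Fzd3 at -1.47 (adjusted p = 1.16e-10). Neither list had a gene called in TRAP between Sh and Gh. In Sh + Flx TRAP against Sh (6.46% of all genes called), 1 effector was higher and 2 were lower and 7 cofactors were lower. Without Sh TRAP 2 and 3 (2.08% of all genes) this left 0 effectors and 1 cofactor. In Sh + Flx anxious TRAP against Sh (10.5% of all genes called) the counts were 3 higher and 3 lower effectors, with the actin-severing protein Cfl1 at 0.86 (adjusted p = 0.00482), and 1 higher and 7 lower cofactors. Without those libraries (4.53% of all genes) they were 2 and 0 and 1 and 3. In input the same comparison (6.86% of all genes called) gave 3 higher and 3 lower effectors, among them the focal adhesion kinase gene Ptk2 (0.33, adjusted p = 0.000177). It gave 7 higher and 3 lower cofactors, among them the receptor phosphatase Ptprf (0.76, adjusted p = 9e-06) and Lingo1 (0.38, adjusted p = 4.52e-05). Sh + Flx against Sh in input (2.62% of all genes called) gave 1 effector, Ptk2 (0.26, adjusted p = 0.00702), and 2 cofactors, Lingo1 and Flrt1, all higher.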

How the data were processed

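The authors used an unstranded cDNA kit, read pairs of 75 bases and aligned them with TopHat2 2.0.11 to mm10 with UCSC genes. The deposited values are counts of reads per gene, not normalized, made with a counting program that no source used here names. Reads outside genes (25.2 to 58.6% in TRAP, 45.1 to 55.2% in input) and ambiguous reads (0.331 to 0.724%) stayed out of library sizes. Deposited group mean FPKM and the authors' own comparisons were not used.

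Members and lists were chosen with earlier results of these data known. Genes were filtered with filterByExpr (edgeR 4.0.16, R 4.3.3), scaled by TMM and tested with the quasi-likelihood test, in 1 fit for TRAP (16754 genes), 1 for input (15690) and 1 for both fractions (17015), with Benjamini-Hochberg adjustment over all genes of a fit and a threshold of 0.05. CPM are TMM-scaled over both fractions. Gh TRAP 2 and 3 were summed. The labels do not say that libraries of the same number are paired, so the fits were unpaired (correlations of same-number libraries -0.256 to 0.199). Named genes were the called members with the smallest p, up to 12 each way for TRAP against input in Gh, up to 8 each way against Sh and for Sh against Gh (the 4 smallest p where none was called) and up to 3 elsewhere, plus the highest member per length of each family, Plxnd1 and Sema4g, binding partners and members near the limit of 1 CPM. Alternatives were DESeq2 1.42.0, RLE scaling, no filter, a replicate block, summed library pairs, Gh TRAP 2 and 3 kept separate, a limit of 2 CPM, Sh TRAP 2 and 3 left out, each sample left out and, chosen after seeing the data, Sh TRAP 1 and 4 summed. The fits were tested on simulated data. Intervals on counts cover counting error only.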

Additional observations from a re-analysis of the deposited data

Results flagged for a closer look

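In groups of 4 libraries, 13 of 273 sets of values for 39 named members (4.76%) held a library far from the other 3, where chance gives about 1 in 20. In Sh TRAP 3, Dcc stood at 54.2 CPM (others 41.4 to 43.2), Plxnc1 at 121 (82.8 to 88.7), Sema5a at 169 (86.3 to 96.9) and Unc5c at 114 (78.2 to 79.9), and in Sh TRAP 2 Ntng2 stood at 7.18 (2.83 to 3.46). In input, Sh library 3 held Sema4g at 9.73 CPM (7.32 to 7.496) and Sh library 4 Sema5a at 155 (123 to 125). Sh + Flx input 2 held Dcc at 41.8 CPM (49.7 to 51.2) and Sema6a at 57.3 (62.5 to 62.7). Sh + Flx anxious input held Plxna4 at 182 CPM in library 1 (196 to 198) and Epha6 at 39.7 in library 4 (48.7 to 50.2). Gh input held Ntn1 at 2.38 CPM in library 1 (3.70 to 3.94) and Efna4 at 0.0394 in library 4, where the others had 0.

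The change in TRAP differed from that in input, by edgeR's interaction term, for 8 results. For Sh + Flx against Sh the difference was -1.28 (log2) for Epha6. For Sh + Flx anxious against Sh it was -1.10 for Plxnd1, -0.80 for Ephb1, -0.73 for Dcc, -1.04 for Sema4a, -0.48 for Plxna2, -0.88 for Epha6 and -0.74 for Plxna4. Only the Plxnd1 result also passed without Sh TRAP 2 and 3, and it did not when Sh TRAP 1 and 4 were summed as well (adjusted p = 0.0777).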

How the results depend on the processing

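Of 2022 alternative values for 67 results on named members, 1870 kept their direction and side of the threshold, 148 no longer passed, 4 newly passed and 0 reversed. The causes were not tested. Most of these values came from leaving out 1 sample and so share most of their data. Among calls against Sh in TRAP, Plxnd1, Dcc and Ephb1 in Sh + Flx anxious were lost in 0 of 15 such fits. Plxna2 in Sh + Flx and Plxnc1 in Sh + Flx anxious were each lost in 13 of 15. With DESeq2 the number of members called became 3 for Sh against Gh in TRAP (1.25% of all genes) and 15 for Sh + Flx against Sh in TRAP (14.3%). It became 1 and 2 for Sh + Flx and Sh + Flx anxious against Gh in TRAP (0.501% and 0.776%) and 1 for Sh against Gh in input (0.956%). For the TRAP-minus-input changes it became 1 for Sh against Gh (0.359%) and 4 for Sh + Flx against Sh. RLE scaling gave 5 for Sh + Flx against Sh in TRAP (6.61% of all genes) and 4 for the anxious TRAP-minus-input change, which was also 4 without the filter. Summing libraries 1 and 4 and libraries 2 and 3 gave 0 and 0 for Sh + Flx and Sh + Flx anxious against Sh in TRAP, 2 and 7 against Gh in input, 17 for TRAP against input in Gh, and 0 for both TRAP-minus-input changes after Flx. Keeping Gh TRAP 2 and 3 separate gave 7 for Sh + Flx against Sh in TRAP (9.78% of all genes) and 2 for its TRAP-minus-input change. Leaving out Sh TRAP 2 and 3 gave 1 for Sh + Flx against Sh (2.08% of all genes) and 1 and 3 against Gh (1.15% and 2.21%). It gave 0 and 2 for the TRAP-minus-input changes after Flx (1.1% and 2.97%). Chosen after seeing the data, summing Sh TRAP 1 and 4 gave 16 and 14 against Sh in TRAP (13.9% and 15.9% of all genes) and 1, 11 and 15 for the TRAP-minus-input changes. With Sh TRAP 2 and 3 left out as well it gave 0 and 0 against Sh, 1 and 2 against Gh in TRAP, and 0 and 0 for the TRAP-minus-input changes after Flx.

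Leaving out 1 sample at a time gave 0 to 16 members for Sh + Flx against Sh in TRAP (16 without Sh TRAP 1 or 4, with 14.6% and 14.2% of all genes called; 0 without Sh + Flx TRAP 2 or 3, with 1.29% and 1.08%) and 3 to 14 for Sh + Flx anxious against Sh (14 without Sh TRAP 1 or 4, with 16.3% and 16.2%; 3 without Sh TRAP 2 or anxious TRAP 2 or 3, with 4.72%, 3.66% and 3.94%). The TRAP-minus-input changes ranged over 0 to 1 (Sh against Gh; 1 without Sh TRAP 4), 1 to 14 (Sh + Flx; 12 and 14 without Sh TRAP 1 and 4) and 1 to 17 (Sh + Flx anxious; 15 and 17 without Sh TRAP 1 and 4). With a replicate block, 2 and 6 members were called against Sh in TRAP, 32 for TRAP against input in Gh and 2, 6, 7 and 14 in input, and Plxna2 and Nrp2 in TRAP lost their calls. Over all pairs of groups, 17 of 64 library comparisons were best with the own number. By pair of groups this was from 0 (among them Gh TRAP with Gh input) to 4 (Sh + Flx with Sh + Flx anxious TRAP, and Sh with Sh + Flx input). The count cannot settle whether libraries were paired, and the main fits are unpaired. A limit of 2 CPM left 59 members. Counts in this section without a share of all genes beside them do not show whether the members changed more than other genes.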

Other observations

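Summed over its members, each family had its own balance between the fractions in Gh mice. The 3 Robo genes together had 228 CPM in TRAP (210.1 to 247, n = 3) and 162 in input (154 to 171, n = 4), and the 6 class 3 semaphorins 172 (160.3 to 182) and 114 (101 to 120.3). The 13 other semaphorins had 301 (271 to 323) and 469 (435 to 502), the 7 EphA receptors 322 (312 to 339) and 443 (410.1 to 468), and the 5 Dcc and Unc5 genes 205 (200.1 to 211) and 291 (265 to 314). In these 5 families no TRAP sample overlapped an input library. The same held for EphB receptors (30.3 to 35.7 CPM in TRAP and 42.6 to 48.1 in input) and ephrin-A genes (72.7 to 80.5 and 87.9 to 98.1). It also held for netrins with netrin-G (55.5 to 66.9 and 75.8 to 85.8) and neuropilins (55.4 to 63.7 and 43.6 to 51.7). Among all single genes, 42.2% were called between the fractions in Gh, which is another measure than a lack of overlap. The share of all genes, or of like sums, without overlap was not counted. The lack of overlap is thus not shown to be particular to these families. The 9 plexins had 489 CPM (469 to 521) and 490 (449 to 524), which overlapped, as did the sums of the Slit and ephrin-B genes. These sums are led by the most abundant members and were not tested.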
